A study of Homo sapiens with 10 samples.

Results

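The regions described are the ANRIL peaks on chromosomes 10 and 12, taken as every row of the deposited peak list that lies on either chromosome of the hg19 build. They number 218 of the 3227 peaks in the list, 104 on chromosome 10 and 114 on chromosome 12. The list comes from ChIRP-seq (chromatin isolation by RNA purification followed by sequencing) in HEK293, a long-established cell line derived from human embryonic kidney. Biotinylated antisense oligos pulled ANRIL out of sonicated chromatin (4 samples: pools named even and odd, in replicates 1 and 2). Oligos against LacZ, a bacterial gene, served as the negative control (4 samples). Input chromatin was sequenced as well (2 samples). All samples are of the same line with no treatment named, at a stated 45 M reads each, and the labels do not say whether the replicates were separate cultures.

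ANRIL is a long non-coding RNA transcribed from chromosome 9, antisense to CDKN2A and CDKN2B, which encode inhibitors of the cell cycle. It is known for binding Polycomb complexes, which place and read repressive marks on histones, at its own locus in cis. It has also been linked to the control of genes on other chromosomes in trans, and ChIRP asks where in the genome such contacts could lie. Every peak on chromosomes 10 and 12 is in trans to the ANRIL gene. The list holds positions and peak values but no DNA sequence, and no hg19 sequence or gene annotation was used here, so no sequence is printed and no gene is assigned to a peak.

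Each peak has 4 deposited values, made by the authors. The peak names read ANRILvsLacZ, so all 4 values are taken to come from a comparison of ANRIL against LacZ. The fold is the ANRIL signal over its local expectation in that comparison. The score is 10 times the −log10 q rounded down. The others are the −log10 p and the −log10 q themselves. Each row carries 1 set of values and 1 name, and the list does not say which replicate they come from, so every fold, score, q-value and peak number printed may be that of a single replicate. No spread between samples can be given for any peak. The reads behind each peak are not in the list, so intervals below cover the counting of peaks only.

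Chromosomes 10 and 12 carried fewer peaks than their length alone would give, a deficit that depended on the many peaks of chromosome X. Chromosome 10 had 0.767 peaks per Mb, which is 0.736 of what its length predicts (exact 95% interval 0.603 to 0.889). Chromosome 12 had 0.852 peaks per Mb, which is 0.817 of what its length predicts (0.676 to 0.978). Tested with a two-sided exact binomial test and adjusted over 24 chromosomes by the Benjamini-Hochberg method, both were below their share (adjusted p = 0.00122 and 0.0311), as were 62.5% of all chromosomes. Of the 24, only chromosomes 9 and 15 were called neither below nor above, so a call by itself sets few chromosomes apart. Without X the ratios were 0.912 for chromosome 10 (exact test, adjusted p = 0.379) and 1.01 for chromosome 12 (adjusted p = 0.885), so neither call held. Among the peaks scoring at or above the list's median, chromosome 12 stood at 0.878 times its share and was not called (exact test, adjusted p = 0.348).

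Direct comparison of chromosomes of similar length does not depend on X. In 5 such pairs, each tested with a two-sided exact binomial test and adjusted over the 5, the density of chromosome 10 was 0.901 times that of chromosome 12 (95% interval 0.684 to 1.19, p = 0.457, adjusted p = 0.523). Against chromosome 11, with 69 peaks, the density was 1.501 times as high on chromosome 10 (1.10 to 2.07, exact p = 0.00956, adjusted p = 0.0239) and 1.67 times as high on chromosome 12 (1.23 to 2.28, exact p = 0.000833, adjusted p = 0.00416). Against chromosome 9, which carries ANRIL itself and 131 peaks, the ratio was 0.827 for chromosome 10 (0.633 to 1.08, exact p = 0.152, adjusted p = 0.253). It was 0.918 for chromosome 12 (0.708 to 1.19, exact p = 0.523, adjusted p = 0.523). In these tests only the differences from chromosome 11 passed the threshold. Chromosomes 8 and 13, the next longer and the next shorter autosome, had only 8 and 5 peaks and were not among the pairs. The pairs were chosen after the counts had been seen, so their p-values are too small as evidence for the chosen contrasts. The tests take peaks as independent.

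Neither side of either chromosome departed from its share of the length by more than the counting interval. With the split at 40 Mb, the short side of chromosome 10 held 32 peaks at 0.800 per Mb and the long side 72 at 0.754 per Mb. The short side thus had 30.8% of the peaks (exact 95% interval 22.1 to 40.6%) on 29.5% of the length. With the split at 36 Mb, the short side of chromosome 12 held 26 peaks at 0.722 per Mb and the long side 88 at 0.899 per Mb. That was 22.8% of the peaks (15.5 to 31.6%) on 26.9% of the length. The peaks nearest the split were at chr10:36814058-36814570 (fold 3.52, score 21) and chr10:45132953-45133374 (fold 3.81, score 23). On chromosome 12 they were at chr12:33965943-33966138 (fold 3.41, score 17) and chr12:38918702-38918995 (fold 3.16, score 17).

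In bins of 5 Mb, counts along both chromosomes stayed between 0 and 9 peaks. From the start of chromosome 10, the 8 bins of the short side held 8, 5, 4, 4, 1, 6, 2 and 2 peaks. From 40 Mb on, the bins held 0, 8, 0, 4, 6, 4, 3, 3, 3 and 1 peaks up to 90 Mb. The rest held 5, 4, 6, 6, 5, 4, 4, 6, 0 and, in the last partial bin, 0. The counts therefore peaked at 8 at the tip of the short side and just beyond the split, between empty bins, where 5 of the 8 were a single run described further on. From the start of chromosome 12, the bins up to 50 Mb held 4, 4, 0, 2, 7, 4, 5, 2, 4 and 1 peaks. From 50 to 100 Mb they held 6, 3, 5, 5, 4, 3, 6, 2, 4 and 3, and from 100 Mb on 3, 6, 6, 9, 5, 8 and, in the last partial bin, 3. The fullest bin of either chromosome was that from 115 to 120 Mb on chromosome 12, with 9.

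**Figure D1:**
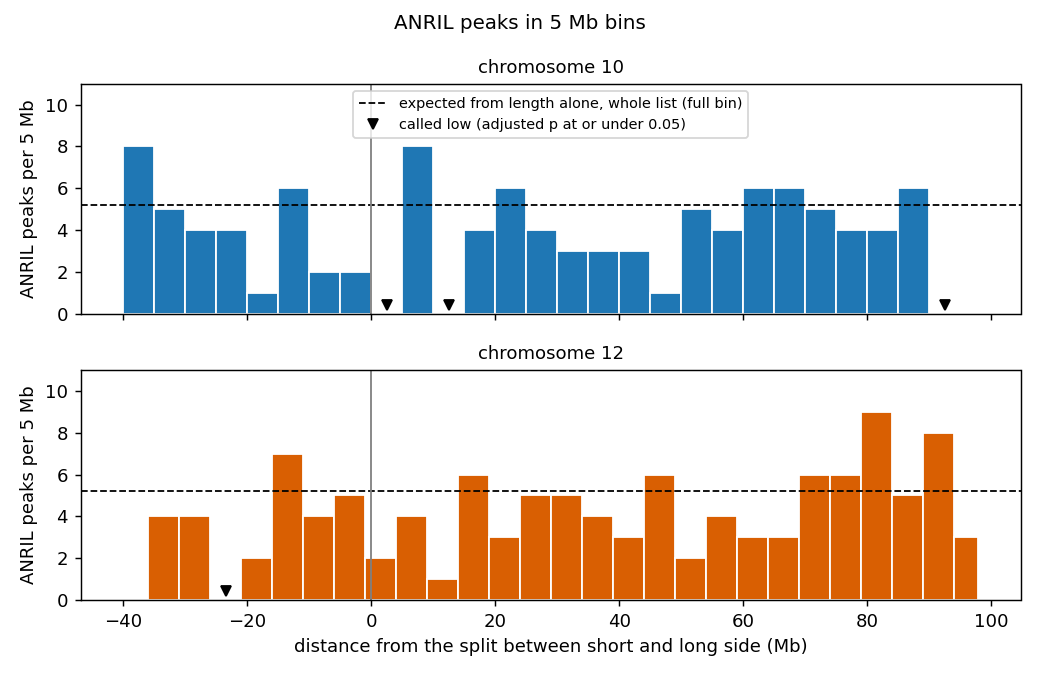
Number of ANRIL peaks in each 5 Mb bin (bars) of chromosome 10 and chromosome 12, against the distance in Mb from the split between the short and long side. The dashed line is the 5.21 peaks expected in a full bin from length alone, and triangles mark the 4 bins called low; counts stay between 0 and 9 on both chromosomes.

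The count of each bin was set against the share of the genome that it spans (exact binomial test, two-sided), adjusted over all 633 bins of the 24 chromosomes. Of the 55 bins of chromosomes 10 and 12, 0 were called high, against 13.3% of all bins. At an unadjusted p of 0.05 the number was also 0, and the fullest bin had an exact p of 0.116 (adjusted p = 0.208). The fewest peaks in any bin called high was 12. Of the 55 bins, 4 (7.27%) were called low, against 26.5% of all bins. They were the 4 empty full bins, from 40 to 45, 50 to 55 and 130 to 135 Mb on chromosome 10 and from 10 to 15 Mb on chromosome 12 (exact p = 0.0128, adjusted p = 0.0322 for each). Bin lengths were taken in full, gaps in the hg19 sequence included, and the bin from 40 to 45 Mb adjoins the split. Its stretch without retained peaks had 5.29 peaks per Mb before filtering, against 15.1 in that around the bin from 50 to 55 Mb. With peaks under 10 kb apart merged, the number of bins called low was again 4. In bins of 10 Mb, 2 were low. Without X, or with only the peaks scoring at or above the list's median, 0 of the bins were low. Over all 633 bins only empty ones had been called low, and the 4 stayed empty in both of these alternatives. A count of 0 no longer passed the threshold there, so neither alternative can show whether the bins were low.

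The bin counts varied about as much as their mean. Over full bins, the variance was 1.31 times the mean on chromosome 10 (27 bins, mean 3.85) and 1.02 times on chromosome 12 (26 bins, mean 4.27). Over all 609 full bins it was 11.4 times the mean. Low values were also found on other chromosomes, such as 0.943 on chromosome 11, 1.21 on chromosome 2, and 1.21 on chromosome 6 at a mean of 13.1. Over the other chromosomes, apart from Y, whose full bins were all empty, it ranged from 0.90 to 20.1, with the highest on chromosome 19 and values of 11.5 on chromosome 1 and 12.3 on chromosome 15. Chromosomes 10 and 12 thus belong to the chromosomes without large steps in density. The one drift along them was on chromosome 12, where 37 peaks lay beyond 105 Mb at 1.28 per Mb and 77 before it at 0.733 per Mb. That position was chosen after the counts were seen, and the contrast was not tested.

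The peaks were widely spaced. The median distance to the next peak was 859 kb on chromosome 10 (interquartile range 250 to 1752 kb) and 841 kb on chromosome 12 (306 to 1586 kb). On all other chromosomes together it was 246 kb, and 354 kb when X was left out. The shortest distances were 1208 bp on chromosome 10 and 1405 bp on chromosome 12, and the longest 8.32 and 7.01 Mb. A neighbour within 100 kb was found for 39 of the 218 peaks (17.9%, exact 95% interval 13.0 to 23.6%), against 43.8% of the whole list and 37.4% of the other chromosomes without X. By chromosome the shares were 19.2% on chromosome 10 and 16.7% on chromosome 12. On other chromosomes of similar density the distances were not tested against these.

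**Figure D2:**
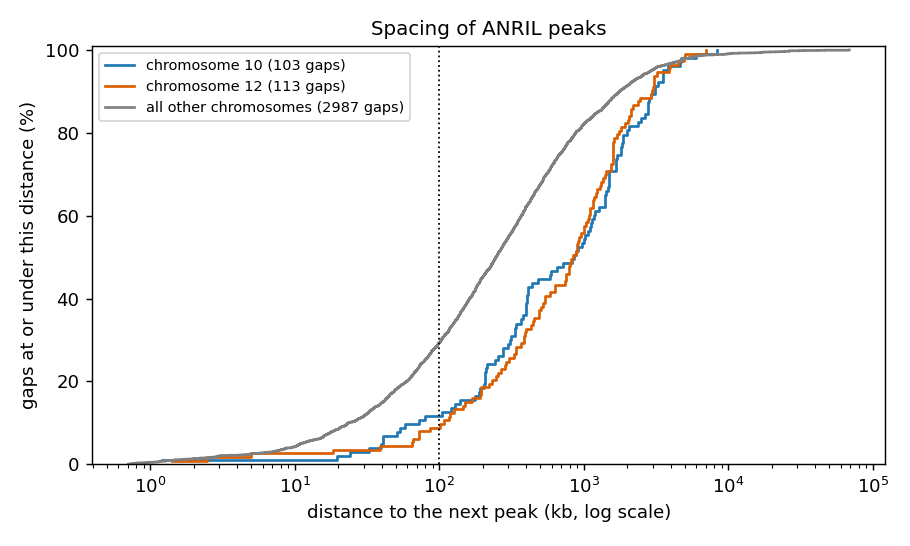
Cumulative share of the distances between neighbouring peaks (percent of gaps, vertical axis) against distance in kb on a log scale, for chromosome 10 (103 gaps), chromosome 12 (113 gaps) and all other chromosomes (2987 gaps). The dotted line marks 100 kb; the curves of chromosomes 10 and 12 lie to the right, with medians of 859 and 841 kb against 246 kb.

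Local groups were rare. Runs of 3 or more peaks with no gap over 100 kb held 11 of the 218 peaks (5.05%) in 3 runs, against 23.6% of the whole list in 190 runs. Fewer runs are to be found where peaks are less dense, and the whole list includes X. The share was not compared with that of chromosomes of similar density, so it may restate the low density. The largest, on chromosome 10, had 5 peaks between 46980184 and 47143083. In order their folds were 2.64, 3.44, 2.80, 3.18 and 2.59, and their scores 19, 33, 17, 24 and 17. A fold under 3 was held by 3 of the 5, and by 6 of all 218 peaks (2.75%). In the whole list the share was 6.51%, and on the other chromosomes without X it was 3.99%. The middle peak, at chr10:47045629-47047849, was 2221 bp wide, the third widest of the chromosome.

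The second run of chromosome 10 lay between 64344036 and 64403996. Its 3 peaks were 309, 230 and 95 bp wide and had folds of 3.42, 3.61 and 3.44 and scores of 18, 20 and 17. The only run of chromosome 12 lay between 117426144 and 117566715, with folds of 4.37, 3.34 and 3.96 and scores of 42, 18 and 26. It belongs to a looser series of 8 peaks over 1396 kb that ended at 118822233 and made up most of the fullest bin. The folds of the other 5 ran from 3.33 to 4.03, and the series had a median fold of 3.76, near that of the chromosome.

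A looser group of chromosome 10, between 127434523 and 127689517, was made up of 4 peaks over 255 kb. Its centre was a close pair, at chr10:127574668-127576976 (2309 bp, fold 2.09, score 20) and chr10:127578185-127583956 (5772 bp, fold 1.94, score 16), with 1208 bp between them. The first had a q-value of 0.00988 and the second one of 0.0225. In the list of 3227 these were the ninth and the first in width, and 2 of the 14 peaks (0.434% of the list) with a fold under 2.5. The flanking peaks differed from the pair in both respects. That at chr10:127434523-127435121 was 599 bp wide (fold 4.37, score 36), and that at chr10:127689119-127689517 was 399 bp wide (fold 3.99, score 25). The group thus joined 2 wide, weakly enriched intervals and 2 peaks of ordinary shape above the chromosome's median fold.

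On chromosome 12 there were 3 pairs of peaks less than 10 kb apart. At chr12:69229163-69229603 (fold 2.98, score 16) and chr12:69232062-69232677 (fold 5.33, score 56), 2458 bp apart, the lowest fold of the chromosome lay beside its highest. In the pair between 32862007 and 32864053, 1405 bp apart, folds were 3.39 and 3.62. In that between 53284286 and 53290106, 5004 bp apart, they were 3.39 and 3.70. The first pair is thus the only one of the 3 in which the members differ widely.

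The numbers in the peak names ran in genome order, so they count the peaks called before replicates were intersected and scores filtered. Chromosome 10 spanned 2232 numbers and chromosome 12 spanned 2375, or at least 16.5 and 17.7 called peaks per Mb, against 18.2 over the genome. Of the called peaks, 4.50 to 4.66% were retained on chromosome 10 and 4.70 to 4.80% on chromosome 12, the range coming from the numbers between chromosomes. Over the whole list the share was at most 5.68%. Between the first and the last retained peak of a side, which leaves out the stretches across the splits and at the ends, called peaks lay at 18.05 per Mb on the short and 18.03 on the long side of chromosome 10. On chromosome 12 they lay at 17.3 and 19.0 per Mb, counted the same way. Retained shares per side were 4.85 and 4.71% on chromosome 10 and 4.47 and 4.93% on chromosome 12.

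**Figure D3:**
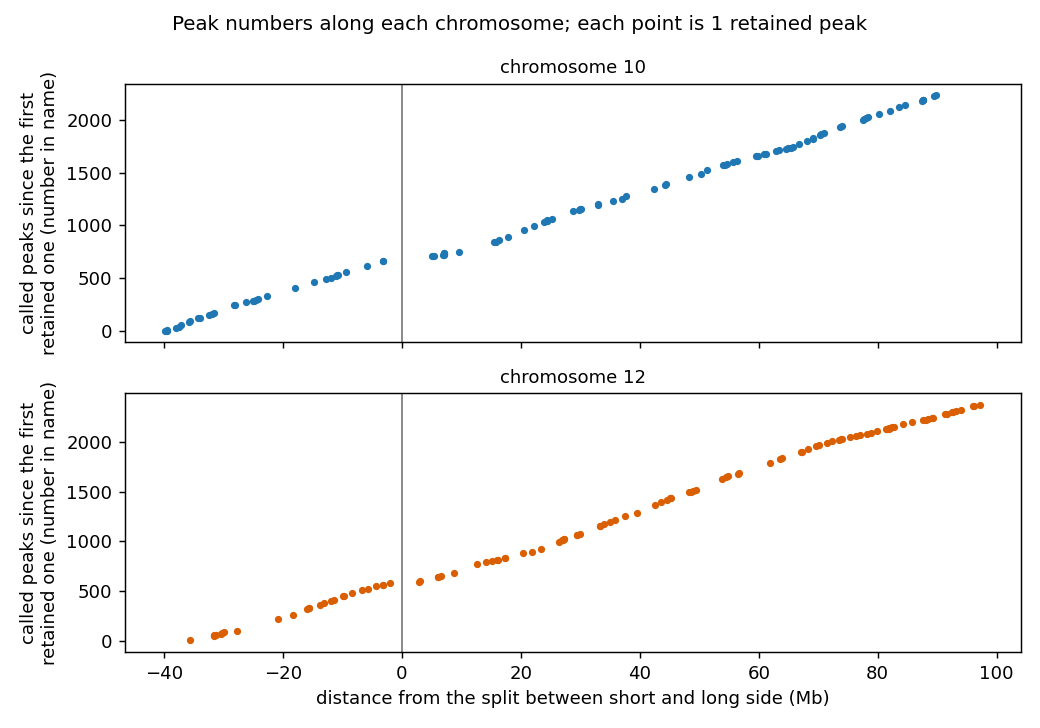
Number in the peak name, counted from the first retained peak of the chromosome, against the distance in Mb from the split between short and long side; each point is 1 retained peak of chromosome 10 (104 points) or chromosome 12 (114 points). The slope is the density of called peaks; it flattens across the split, with 44 called peaks over 8.32 Mb on chromosome 10 and 7 over 4.95 Mb on chromosome 12.

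All of the 5 longest stretches between neighbouring retained peaks of each chromosome held called ones. On chromosome 10 the longest, from 36814571 to 45132952, crossed the split and held 44 called peaks, or 5.29 per Mb. On chromosome 12 the stretch across the split, from 33966139 to 38918701, held 7, or 1.41 per Mb. Away from the splits the density of called peaks was higher. The stretch from 49517168 to 55474939 on chromosome 10, which includes an empty bin, held 90 called peaks at 15.1 per Mb. The longest on chromosome 12, from 8219921 to 15233277, includes another empty bin and held 113 at 16.1 per Mb. Of these 10 stretches, the 8 away from the splits had 12.3 to 23.1 called peaks per Mb, against 17.3 to 19.0 between the first and last retained peaks of the sides. After the last peak of chromosome 10, at chr10:129879568-129879923, the remaining 5.65 Mb had no retained peak. This end stretch was longer than some of those listed but was not ranked with them. It includes the empty bin from 130 to 135 Mb. The next 73 numbers fell there or at the start of chromosome 11, so whether the end stretch held called peaks is not known.

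Called peaks were also packed into some local groups. In the run that starts at 46980184 the names spanned 26 numbers over 163 kb, of which 5 were retained. In the group around the wide pair of chromosome 10 the 4 peaks spanned 10 numbers, and those of the pair were successive. In the run that starts at 64344036 all 3 called peaks were retained, and in that which starts at 117426144 3 of 4. The first of these groups is thus the one with the most called peaks left out.

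In score and q-value the peaks of chromosomes 10 and 12 lay close to the list as a whole. Scores had a median of 21 on both, as over the whole list. On chromosome 10 they ran from 16 to 71 (interquartile range 18 to 25.5), and on chromosome 12 from 16 to 56 (17 to 26). A q-value at or under 0.01 was reached by 61 of 104 peaks on chromosome 10 (58.7%, exact 95% interval 48.6 to 68.2%). On chromosome 12 it was reached by 68 of 114 (59.6%, 50.1 to 68.7%), and in the whole list by 57.5%. The lowest score, 16, was held by 36 of the 218 (16.5%) against 14.3% of the list, and a score of 40 or more by 15 (6.88%) against 5.27%. By side, a q-value at or under 0.01 was reached by 68.8% of the short and 54.2% of the long side of chromosome 10. On chromosome 12 the shares were 46.2% and 63.6%. These 4 have wide intervals that overlap, the outermost bounds being 26.6 and 83.9%.

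The strongest peak of chromosome 10 was at chr10:65262729-65263077, with a score of 71, a fold of 5.12 and a q-value of 6.84e-08. It ranked 14 in the whole list. The next were at chr10:45473903-45474637 (score 51 and fold 5.21), chr10:29192005-29192227 (score 45, fold 4.88), chr10:94646163-94646430 (score 41, fold 4.82) and chr10:99495853-99496178 (score 41, fold 4.81). A score of 41 was also held by chr10:30595176-30595589 on the short side, placed after these by its fold of 4.74, although its q-value of 6.73e-05 was lower than theirs (7.61e-05 and 7.65e-05). No 2 of these 6 lay in the same bin, and 2 lay on the short side.

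The strongest peak of chromosome 12, in the pair at 69.23 Mb, had a score of 56, a fold of 5.33 and a q-value of 2.31e-06, and ranked 38 in the list. It was followed by chr12:29205222-29205572 (score 51, fold 5.13), chr12:42523402-42523900 (score 46, fold 5.02), chr12:71856577-71856817 (score 45, fold 4.91) and chr12:89899782-89900300 (score 45, fold 4.85). These too lay apart, and none was in the fullest bin.

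Folds were somewhat higher than in the list as a whole. The median was 3.56 on chromosome 10 (interquartile range 3.39 to 3.95) and 3.62 on chromosome 12 (3.39 to 3.95), against 3.47 on all other chromosomes (3.24 to 3.78) and 3.53 on those without X. A fold of 4 or more was held by 51 of the 218 (23.4%, exact 95% interval 17.9 to 29.6%), against 15.5% of the list and 17.2% of the other chromosomes without X. Among peaks with scores of 16 to 18, median folds were 3.37 on both chromosomes (35 and 39 peaks), against 3.21 on the others and 3.28 on those without X. Of the 201 peaks with a score that at least 20 peaks of other chromosomes shared, 169 (84.1%) had a fold above the median at that score. The same held for 81.5% of the peaks on chromosome 9, 85.5% on chromosome 11, 87.5% on chromosome 2 and 89.9% on chromosome 7, while on X it was 8.96%. A high fold at a given score was therefore not particular to chromosomes 10 and 12. It was also seen on chromosomes 9, 11, 2 and 7 but not on X. None of those autosomes was called above its share of the length. The remaining autosomes, among them the peak-rich chromosomes 6, 17 and 19, were not compared. Except in the comparison of X itself, the medians included the peaks of X, and medians at each score without X were not taken. Folds are the authors' values for peaks that had passed a q filter, and no test was made of them.

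**Figure D4:**
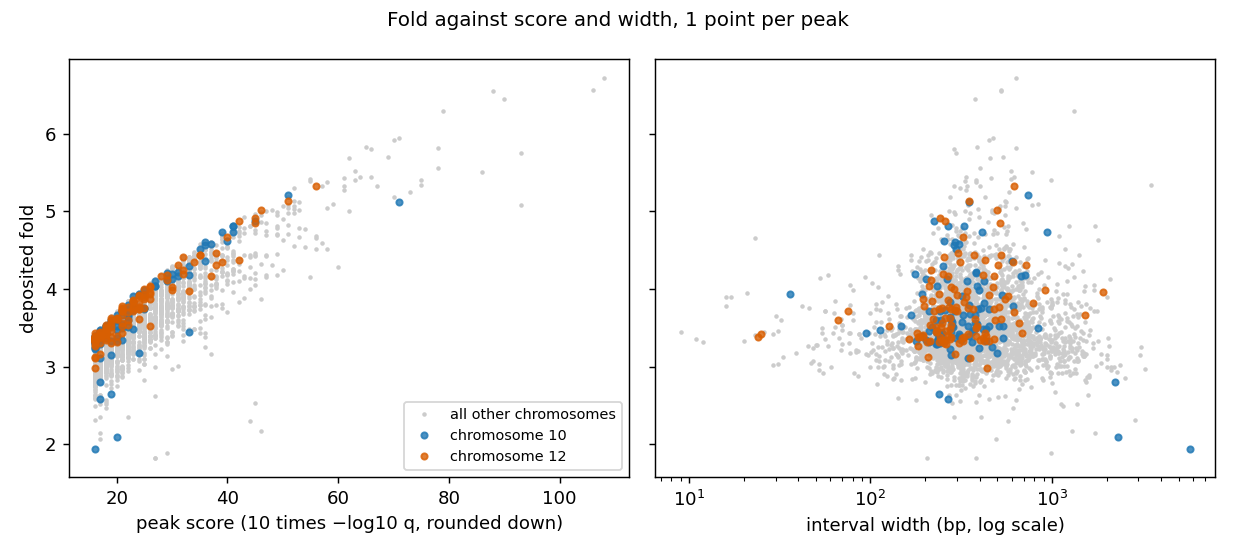
Deposited fold (vertical axis) against peak score (left) and interval width in bp on a log scale (right), 1 point per peak, for chromosome 10, chromosome 12 and all other chromosomes. Of the 201 peaks of chromosomes 10 and 12 with a score that at least 20 peaks of other chromosomes shared, 169 (84.1%) lie above the median fold at that score. The wide pair of chromosome 10 lies at the bottom, at folds of 1.94 and 2.09.

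Across the 218 peaks, which share libraries and are not replicates, Spearman's rho was 0.91 between fold and score, 0.19 between fold and width and 0.27 between score and width. On the other chromosomes the rho of fold and score was 0.81. The short and long sides of chromosome 10 had median folds of 3.67 and 3.53, and those of chromosome 12 had 3.55 and 3.71. The lowest folds of chromosome 10 were those of the wide pair. On chromosome 12 they were 2.98, in the pair at 69.23 Mb, and 3.11, at chr12:5515192-5515547. On chromosome 12 only the first of these was under 3.

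Peaks were narrow. The median width was 302 bp on chromosome 10 (interquartile range 240 to 396 bp) and 294 bp on chromosome 12 (239 to 426 bp), against 348 bp on the other chromosomes (263 to 522 bp) and 336 bp on those without X. Together the peaks covered 84.7 kb, or 0.0314% of the 2 chromosomes, against 0.0474% of the others and 0.0350% of those without X. Only 5 of the 218 (2.29%) were wider than 1000 bp, against 5.98% of the list and 4.70% of the other chromosomes without X. On chromosome 10 these were the wide pair and the peak of 2221 bp in the run of 5, all with folds under 3. On chromosome 12 they were at chr12:117564809-117566715 (1907 bp, fold 3.96, score 26) and chr12:131991226-131992740 (1515 bp, fold 3.67, score 21). The next widest there was at chr12:129192515-129193433 (919 bp, fold 3.99, score 30). Wide intervals thus had low folds on chromosome 10 and folds above the median on chromosome 12, with 3 and 2 cases.

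At the other end, 3 of the 218 intervals (1.38%, against 0.713% of the list) were shorter than the sequencing reads of 43 bp. They were at chr10:27186293-27186328 (36 bp, fold 3.94), chr12:124181393-124181416 (24 bp, fold 3.38) and chr12:44728368-44728392 (25 bp, fold 3.42). Widths are those left after the peaks of both replicates were intersected, so these are overlaps and not called widths. None of the called peaks of chromosomes 10 and 12 was split into pieces by that step.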

How the data were processed

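ChIRP DNA was sequenced as paired-end reads of 43 bp, per the labels' protocols. Per the labels' design text, even and odd pools were joined, and per the deposited list's title, peaks of both replicates were intersected and filtered on a score of 15 and on blacklisted regions. Bowtie2, MACS2, deepTools, bedtools and hg19 are listed in the submitters' processing notes, without parameters. The authors' deposited columns were read from their values as a score, a fold (a ratio), a −log10 p and a −log10 q, whose p-value and q-value only describe peaks.

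Positions are printed from 1, and peaks were placed by their midpoint. Chromosome and bin counts were tested with exact binomial tests against full hg19 lengths, gaps included, with Benjamini-Hochberg adjustment and a threshold of 0.05. The tests were tried on simulated lists in which peaks were placed independently, so that trial does not cover peaks that depend on one another. Named are the 5 highest-scoring peaks, the 3 widest and the 2 of lowest fold per chromosome, all runs of 3 or more peaks, and the group around the wide pair of chromosome 10; close pairs, short intervals, the series around the run of chromosome 12 and peaks beside the splits were added after their values were seen. So were the pairs of chromosomes compared and the folds at equal score. Members and lists were chosen with earlier results of these data known. LacZ enters only through the comparison that the peak names state. Separate values of the LacZ and input samples were not analysed here. The exact tests came from scipy 1.17.1, with pandas 2.3.3 and numpy 2.4.6 under Python 3.11.15.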

Additional observations from a re-analysis of the deposited data

How the results depend on the processing

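Of 48 values under alternatives, 31 kept their direction and their side of the threshold, or stayed within their counting interval. Without chromosome X the ratio to the length share was 0.912 for chromosome 10 and 1.01 for chromosome 12, and for scores at or above the median it was 0.878 for chromosome 12. Leaving out X lowers the total that the shares are taken from; the cause of the last was not tested. Bins called low numbered 2 at 10 Mb, 0 among the higher-scoring peaks and 0 without X, and 4 with peaks under 10 kb apart merged, against 4 as reported; bins called high numbered 0 in all 4 alternatives. Peaks with a neighbour made up 10.1% at 50 kb, 64.2% at 500 kb and, at 100 kb, 5.13% for scores at or above the median, with 23 runs at 500 kb and 0 for the higher scores. At scores of 16 to 18 the median fold was 3.37 on both chromosomes and the median width 276 bp on chromosome 10 and 261 bp on chromosome 12. At a q-value of 0.005 the shares were 37.5% and 43.0%. The moves with distance, score range and q-value follow from settings that are wider or stricter by construction. Keeping only the higher-scoring peaks thins the list, so the numbers of peaks with a neighbour or in a run can only fall. Whether their shares fell by more than thinning gives was not tested. The 5 Mb bins called low stayed empty among those peaks and without X, where a count of 0 no longer passed the threshold. The shares per side stayed within their intervals under the 4 alternatives tried. Leaving out a replicate was not possible, since the replicates are merged. No paired analysis was possible because per-sample values are not in the file used. Depth per peak is unknown, so a low count cannot be told from low sensitivity.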
